A study of Mus musculus with 12 samples.

Results

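Gene expression at day 21 after stroke was set against day 7 in cells sorted as astrocytes from the cerebral cortex of mice. The comparison rests on 4 of the 12 libraries in the series, namely the day 21 replicates 1 and 2 and the day 7 replicates 1 and 2, and on every gene that passed a filter on low counts (15635 of 15774). All mice were wild-type C57BL/6J, and the labels name no transgene or drug. In both groups the distal middle cerebral artery was tied permanently and both common carotid arteries were then closed for 7 min, and the cells were collected 21 or 7 days later. The other 8 libraries (2 each from sham surgery, day 1, day 3 and day 60) entered the fit to estimate the spread between libraries. The age and sex of the mice and the marker used for the sort are not given in the sources used here, and neither is whether a library came from 1 animal or a pool. Nothing in the labels says that the replicates are different animals, and each p-value speaks only to the spread of these libraries.

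Astrocytes support neurons by taking up glutamate, buffering potassium and contacting blood vessels. After a stroke in the cortex they become reactive: they enlarge, some divide, and those near the infarct form a border around a core filled with phagocytes and fibroblasts that lay down matrix. In the weeks that follow, division and clearance of debris wane and a lasting scar remains. Reactive astrocytes also secrete acute-phase proteins, chemokines and complement proteins, best known from the liver and from immune cells.

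The day 21 libraries held 15772542 and 122366362 counts, and the day 7 libraries held 16404888 and 156128922. Replicate 2 was thus 7.76 times as deep as replicate 1 at day 21 and 9.52 times at day 7. Levels below are CPM (counts per 1e+06 counts of the library) scaled with TMM factors. The 10 most abundant genes took 7.86% and 13.9% of the counts at day 21, against 17.1% and 30.1% at day 7. Markers of other cell types were present at both times, and several sets moved. Fibroblast and leptomeningeal markers (16 genes) held 3.06% and 4.79% of the counts at day 21, against 8.33% and 19.9% at day 7 and a mean of 0.0405% in sham. Microglia markers (14 genes) held 0.220% and 0.199% at day 21, against 0.610% and 0.335% at day 7. Both shares were lower at day 21 without overlap. Col1a1 and Col3a1, 2 of the fibroblast markers, alone held 0.959% and 1.95% at day 21, against 5.64% and 14.8% at day 7. The fall of the fibroblast share thus rests largely on these 2 genes. Markers of astrocyte identity (30 genes) held 0.516% and 0.409% at day 21, against 0.235% and 0.159% at day 7, while the sham libraries held 1.66% and 1.46%. Neuron markers (18 genes) held 0.148% and 0.133% at day 21 and 0.0343% and 0.0181% at day 7, far under the 1.03% and 1.21% of sham. The cells at both times therefore carried less of the astrocyte set than the sham cells did, together with RNA typical of other cells. In bulk RNA, fewer cells of a type and less RNA per cell cannot be told apart.

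Of the 15635 genes tested, 69 (0.441%) differed between the times in edgeR's quasi-likelihood test with a Benjamini-Hochberg adjusted p under 0.05. Of these, 38 were higher at day 21 (0.243% of genes tested) and 31 were lower (0.198%). With the replicate number as a block, 635 genes passed (4.06%), of which 345 were higher (2.21%) and 290 lower (1.85%), and they included 69 of the 69. An unadjusted p under 0.05 was reached by 2099 genes (13.4%). The higher set included genes of secreted defence proteins (Lcn2, Saa3, Hp, C3) and chemokines (Cxcl5, Cxcl13). The lower set included Spp1, matrix genes (Aspn, Tnc, Col6a3, Col8a1) and 2 genes of cell division (Ccnb2 and Birc5). They are examples and not a ranking: 48 of the 69 called genes were in none of the gene lists described below. The smallest called change was a log2 fold change of 1.72 among the higher genes and 1.64 in size among the lower ones. The called set depended on each of the 4 libraries: without day 21 replicate 1 or 2, 5 and 6 genes passed, and without day 7 replicate 1 or 2, 2 and 3 genes passed. Of 66 called genes examined singly, 2 (Cxcl5 and Lcn2) passed with each of the 12 libraries left out in turn.

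**Figure D1:**
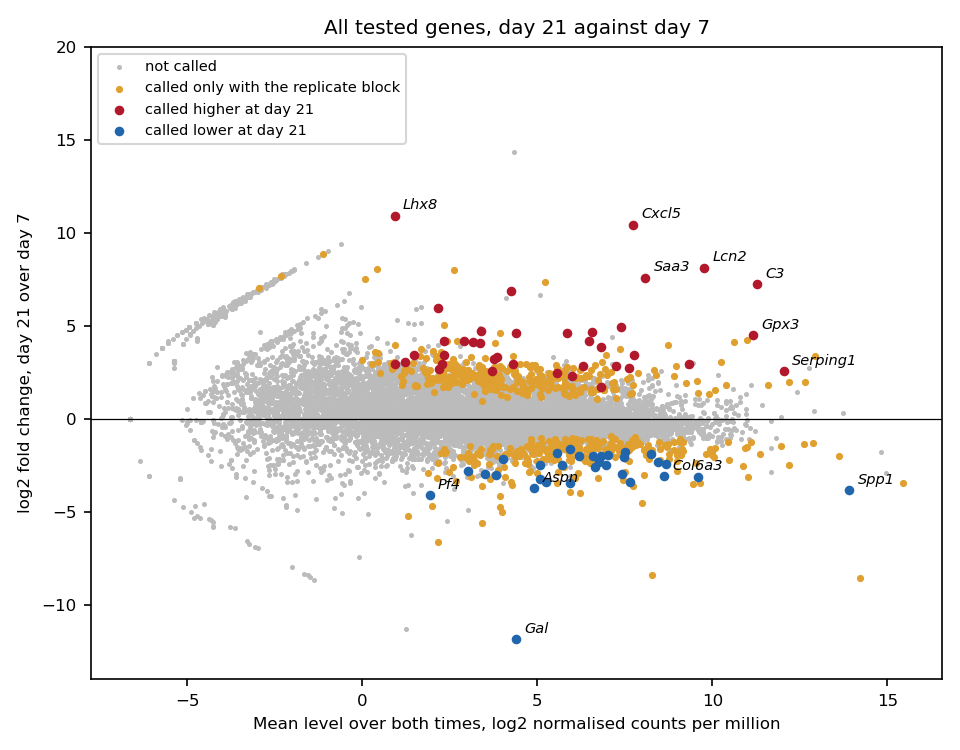
Each point is 1 of the 15635 genes tested, with its mean level over day 21 and day 7 on the x axis (log2 normalised CPM) and its log2 fold change, day 21 over day 7, on the y axis. The 38 genes called higher (red) and 31 called lower (blue) lie among a wider set that passed only with the replicate block (orange), and 7332 genes (46.9%) have a positive change.

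The acute-phase and antimicrobial proteins, secreted in inflammation to bind iron, lipids or microbes, held some of the largest increases. Lcn2 (lipocalin 2, which binds the iron carriers of bacteria and is a marker of reactive astrocytes) stood at 1344 and 2113 CPM at day 21, against 4.97 and 7.36 CPM at day 7. Its mean was 280.3 times as high at day 21 (a log2 fold change of 8.13 ± 0.58 SE, adjusted p = 0.000428). Saa3 (serum amyloid A3, an acute-phase apolipoprotein) had 414 and 666 CPM at day 21 and 2.35 and 3.22 CPM at day 7. The groups did not overlap for either gene, and the Saa3 change was 7.59 ± 0.77 on the log2 scale (adjusted p = 0.00383). Hp (haptoglobin, which binds free haemoglobin) had 175.1 and 191 CPM at day 21, against 7.12 and 7.27 CPM at day 7 (a log2 fold change of 4.67 ± 0.60, adjusted p = 0.0162). Over the whole list 3 of 20 tested members were called higher and 0 lower, 18 of 20 had a positive change, and the median was 2.41, beside -0.041 over all genes tested. With the replicate block 9 members passed as higher (2.21% of all genes tested did): these 3 and Saa1, Cp, Lbp, Ptx3, Slpi and S100a9.

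Lcn2 and S100a9 are also markers of neutrophils. The 11 tested markers of that list held 0.161% and 0.209% of the counts at day 21, against 0.00990% and 0.00561% at day 7. Without Lcn2 the remaining 10 held 0.00927% and 0.0162% at day 21 and 0.00945% and 0.00511% at day 7. Without Elane (neutrophil elastase) as well, the other 9 held 0.00923% and 0.00886% at day 21 and 0.00945% and 0.00511% at day 7, so the times overlapped. By single genes the list had a median log2 fold change of 5.08, the highest of the 48 lists, and 1 was called (Lcn2). In 9 of 11 members both day 21 libraries were higher than both day 7 libraries, which held for 25.6% of all genes tested. S100a9 had 7.56 and 9.98 CPM at day 21, against 0.537 and 0.846 CPM at day 7, and passed only with the replicate block (adjusted p = 0.0325, or 0.0919 without it).

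Lcn2, Saa3 and C3 lie on mouse chromosomes 2, 7 and 17 (GRCm38, chr2:32384633-32388252, chr7:46711998-46715700 and chr17:57203970-57228136), all on the minus strand and protein coding. The 250 bases upstream of each RefSeq start are shown because these 3 secreted-protein genes rose together between the times and because each window holds a match to the C/EBP pattern TTGCNNAA on 1 of the strands. They are from the RefSeq table of GRCm38.p6, written 5′ to 3′ along the gene, with the matches in capitals. The gene spans above are those of GENCODE, whose outermost starts can lie further upstream than the RefSeq start: the Lcn2 window lies within the Lcn2 span, and the Saa3 window overlaps the end of its span.
Lcn2 (chr2:32387740-32387989, minus strand): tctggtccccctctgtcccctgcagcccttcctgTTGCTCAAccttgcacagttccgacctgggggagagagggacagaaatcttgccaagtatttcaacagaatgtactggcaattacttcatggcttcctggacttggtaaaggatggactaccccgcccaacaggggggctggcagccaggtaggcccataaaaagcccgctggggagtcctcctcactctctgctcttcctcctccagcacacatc
Saa3 (chr7:46715677-46715926, minus strand): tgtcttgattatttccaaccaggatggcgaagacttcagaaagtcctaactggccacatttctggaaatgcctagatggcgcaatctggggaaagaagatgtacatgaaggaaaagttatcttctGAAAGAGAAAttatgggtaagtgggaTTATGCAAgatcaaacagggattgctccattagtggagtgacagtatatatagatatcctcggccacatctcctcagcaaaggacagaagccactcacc
C3 (chr17:57228137-57228386, minus strand): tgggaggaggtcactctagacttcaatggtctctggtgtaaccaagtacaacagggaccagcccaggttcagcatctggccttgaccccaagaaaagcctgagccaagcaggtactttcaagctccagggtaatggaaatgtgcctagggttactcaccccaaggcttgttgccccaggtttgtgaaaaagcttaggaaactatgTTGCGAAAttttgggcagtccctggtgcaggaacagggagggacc
The match is TTGCTCAA in Lcn2, from 216 to 209 bases upstream of the start, TTATGCAA in Saa3, from 99 to 92 bases upstream and on the opposite strand, and TTGCGAAA in C3, from 45 to 38 bases upstream. Saa3 also holds GAAAGAGAAA, a match to the IRF pattern (GAAA, any 2 bases, GAAA), from 125 to 116 bases upstream. The 5 patterns were searched on both strands of the 250 bases, and the C/EBP one occurred in 7.70% of the 11693 windows of tested genes, in 6 of the 26 available among genes called higher (23.1%: Lcn2, Saa3, C3, Cxcl13, Slc7a11 and Efemp1) and in 3 of the 24 among genes called lower (12.5%). The NF-kB pattern (GGG, any 2 bases, TTTCC) was in 1.51% of all windows and in 1 window of each called set. The STAT pattern TTCNNNGAA was in 6.15% of all windows, in 2 windows of the higher set and 0 of the lower. For the AP-1 pattern TGANTCA the figures were 4.67%, 4 and 0, and for the IRF pattern 2.70%, 2 and 2. These matches are letters in a window and were not tested as binding sites.

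**Figure D2:**
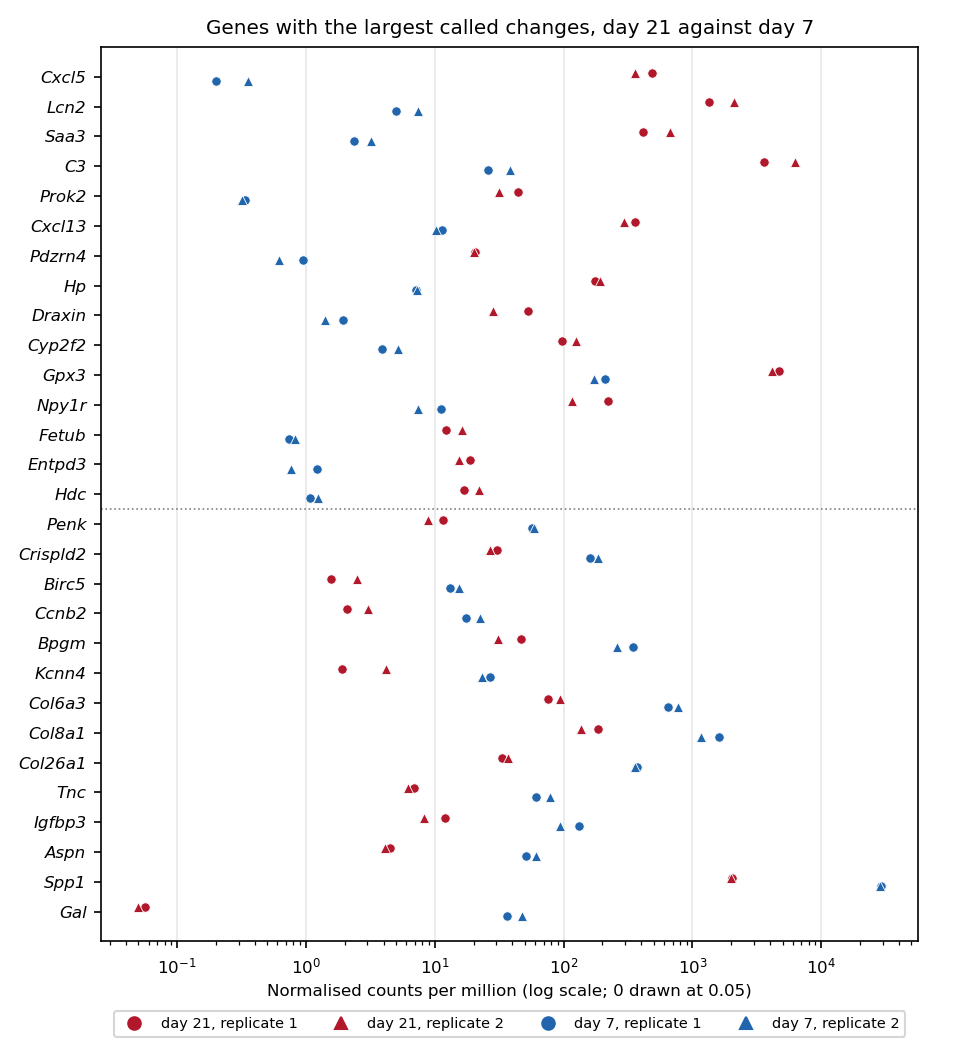
Normalised CPM (x axis, log scale) in each of the 4 libraries for the 15 genes with the largest called increases (above the dotted line) and 14 of those with the largest called decreases (below it), among genes with at least 10 CPM in the higher group, day 21 in red and day 7 in blue, circles for replicate 1 and triangles for replicate 2. Libraries of day 21 lying all above or all below those of day 7 was a condition for choosing these 29 genes. A value of 0 (Gal in day 21 replicate 2) is drawn at 0.05.

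The complement system tags debris, synapses and microbes for uptake, and C3 is its central component, cleaved by all of its pathways. C3 had 3611 and 6280 CPM at day 21, against 26.0 and 38.4 CPM at day 7, a mean 153.6 times as high (log2 fold change 7.26 ± 1.17, adjusted p = 0.0363). Serping1, the inhibitor of the C1 proteases, had 6869 and 7500 CPM at day 21, against 1093 and 1361 CPM at day 7 (a log2 fold change of 2.55 ± 0.44, adjusted p = 0.0442). In both genes every day 21 library lay above every day 7 library. Of 12 tested complement components 1 was called higher and 0 lower (median log2 fold change 0.89), and of 10 tested regulators 1 was called higher and 0 lower (median 0.77, or 0.24 with C4bp, at 0 counts at day 7, placed at its bound). The block added Clu, a secreted inhibitor of the terminal pathway, to the regulators that were higher. With the block the components divided: C3, C4b, C1ra and Cfb passed as higher, while C1qa, C1qb and C1qc, the subunits of C1q that microglia make, and C3ar1, the C3a receptor, passed as lower.

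C4b and C1ra differed widely between the replicate numbers at both times. C4b, the component cleaved after C1 is activated, had 1166 and 27200 CPM at day 21, against 200.8 and 2517 CPM at day 7 (a log2 fold change of 3.38 ± 2.31, adjusted p = 0.644, or 0.00896 with the block). C1ra, a protease of the C1 complex, had 489 and 7310 CPM at day 21, against 36.5 and 377 CPM at day 7 (a log2 fold change of 4.24 ± 1.96, adjusted p = 0.39, or 0.00151 with the block). The time groups overlapped for C4b and were narrowly separate for C1ra, and each replicate number on its own was higher at day 21. Their near-identical copies C4a and C1rb, chosen after their values were seen, were almost without counts in replicate 1. C4a had 0.0560 and 24170 CPM at day 21, against 0.0672 and 3631 CPM at day 7. C1rb had 0.784 and 5920 CPM at day 21, against 0.336 and 335 CPM at day 7. Such a gap recurred in all 6 groups: 120 of 15635 genes were over 5 times as high in replicate 2 as in replicate 1 in every group (after 0.5 CPM was added to each value), and 1 gene was the reverse. None of these was among the 69 called genes (0 of 69), which were 0.441% of all genes tested. Of the 635 genes of the block, 4.06% of all genes tested, 5 were among them. A wide gap between replicates hinders a call without the block, so the 0 does not show that the calls are free of it. How reads that match several genes were counted is not given in the sources used here, so the levels of such copies are uncertain.

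Chemokines, small secreted proteins that draw in leukocytes, held the largest called increase with counts at both times. Cxcl5, a ligand of the neutrophil receptor Cxcr2, had 486 and 358 CPM at day 21, against 0.202 and 0.353 CPM at day 7, a mean 1520 times as high (log2 fold change 10.45 ± 0.70, adjusted p = 0.000428). The day 7 values of Cxcl5 rest on 3 and 38 counts, so the size of its ratio is uncertain. Cxcl13, a ligand for B cells, had 358 and 294 CPM at day 21, against 11.3 and 10.2 CPM at day 7 (a log2 fold change of 4.93 ± 0.69, adjusted p = 0.021). The libraries of the times lay far apart for both. Of 30 cytokine and chemokine genes tested, 2 were called higher and 0 lower, with a median of 1.06, and 22 had a positive change. Ccl2, a ligand for monocytes, had 94.1 and 95.7 CPM at day 21, against 16.7 and 14 CPM at day 7, and passed only with the block (log2 fold change 2.63 ± 0.54, adjusted p = 0.0696, or 0.0128 with the block). The block also passed Ccl5, Ccl7, Cxcl1, Cxcl12 and Csf3 as higher and Il33 as lower. Cxcl10, an interferon-induced chemokine, did not pass in either fit (69.7 and 46.3 CPM at day 21, 32.0 and 14.02 CPM at day 7, adjusted p = 0.359). Markers of T, B and NK lymphocytes held 0.00165% and 0.00141% of counts at day 21 and 0.00129% and 0.000699% at day 7, and 0 of 14 tested were called (median 2.35, or 1.87 with 2 members at 0 counts at day 7 placed at their bounds). Trbc2, Jchain, Ighm and Igkc of this list are absent from the deposited counts.

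Among the genes of antioxidant defence, 3 rose. Gpx3, the secreted glutathione peroxidase, had 4673 and 4120 CPM at day 21, against 210.5 and 173 CPM at day 7 (a log2 fold change of 4.52 ± 0.46, adjusted p = 0.00383). Slc7a11, the cystine importer that feeds glutathione synthesis and exports glutamate, had 339 and 198 CPM at day 21, against 40.8 and 32.8 CPM at day 7 (a log2 fold change of 2.87 ± 0.50, adjusted p = 0.0442). Sod2, the mitochondrial superoxide dismutase, had 181 and 167.5 CPM at day 21, against 52.1 and 54.1 CPM at day 7 (a log2 fold change of 1.72 ± 0.30, adjusted p = 0.0445). These were the 3 called members of 21 tested, all higher and without overlap, and the list's median was 0.40. With the block Mt1, Nqo1 and Gstm1 passed as well. Gpx3 climbed over the series: its group means in CPM were 10.6 (sham), 12.3 (day 1), 136.0 (day 3), 192 (day 7), 4397 (day 21) and 4533 (day 60). Sod2, by contrast, was lowest at day 7, with mean CPM of 147 (sham), 169.5 (day 1), 122 (day 3), 53.1 (day 7), 174 (day 21) and 107.6 (day 60).

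Receptors, signals and enzymes formed the rest of the large increases. Prok2 (prokineticin 2, a secreted peptide) had 44.2 and 31.8 CPM at day 21, against 0.336 and 0.316 CPM at day 7 (a log2 fold change of 6.87 ± 0.63, adjusted p = 0.00323). Its day 7 values rest on 5 and 34 counts. Npy1r, the Y1 receptor for neuropeptide Y, had 220.4 and 115.3 CPM at day 21, against 11.2 and 7.36 CPM at day 7 (a log2 fold change of 4.18 ± 0.51, adjusted p = 0.0124). Hdc, the enzyme that makes histamine, had 16.9 and 22.0 CPM at day 21, against 1.08 and 1.24 CPM at day 7 (a log2 fold change of 4.06 ± 0.53, adjusted p = 0.0162). All 3 rose over 15 times in mean level, and no day 21 library came near a day 7 library. Draxin, a secreted axon repellent, had 52.7 and 28.2 CPM at day 21, against 1.95 and 1.40 CPM at day 7 (a log2 fold change of 4.61 ± 0.73). Cyp2f2, a cytochrome P450, had 97.2 and 124.8 CPM at day 21, against 3.90 and 5.20 CPM at day 7 (4.60 ± 0.62). Pdzrn4 (4.74 ± 0.61), Entpd3, an ectonucleotidase that breaks down extracellular ATP (4.14 ± 0.49), and Fetub, the protease inhibitor fetuin-B (4.17 ± 0.73), completed the 15 largest called increases among genes with at least 10 CPM at day 21. Their day 21 means were 20.3, 17.1 and 14.2 CPM, against 0.777, 0.991 and 0.783 CPM at day 7.

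Among the remaining increases were secreted or matrix proteins, namely Coch (cochlin, 209 and 212 CPM at day 21 and 12.9 and 16.2 CPM at day 7), Htra4 (a serine protease, 384 and 407 CPM at day 21 and 32.7 and 40.3 CPM at day 7) and Efemp1 (fibulin-3, 1046 and 1237 CPM at day 21 and 115.8 and 184.5 CPM at day 7). Their log2 fold changes were 3.85 ± 0.50, 3.44 ± 0.54 and 2.93 ± 0.48. Pla1a, a phosphatidylserine-specific phospholipase (2.76 ± 0.39), Fgf7, a growth factor for epithelium (2.98 ± 0.51), and Klf15, a transcription factor induced by glucocorticoids (2.48 ± 0.37), rose as well. So did Arg2, the mitochondrial arginase (3.42 ± 0.55), Vnn1, a pantetheinase (3.34 ± 0.58), Edar, the ectodysplasin receptor (4.19 ± 0.74), Sct, secretin (5.97 ± 0.94), and Slamf8, a leukocyte surface protein (2.59 ± 0.45). Sct had 0 and 22 counts at day 7, and its log2 fold change ran from 5.37 to 12.07 over the settings tried. Lhx8, a LIM-homeobox transcription factor of forebrain cholinergic neurons, had 3.75 and 3.77 CPM at day 21 and no count in either library at day 7, which made it at least 32.8-fold higher at day 21 when day 7 is set to 3 counts per library. That floor covers counting error only. Lhx8 stood at 52.5 and 77.0 CPM in the day 60 libraries. Choroid plexus markers (12 genes, of which Ttr, the thyroxine carrier of that epithelium, is the most abundant) held 0.161% and 0.158% of counts at day 21, against 0.0174% and 0.0196% at day 7. Their part in these increases was not tested.

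A group of genes typical of neurons was higher at day 21 than at day 7 but stayed under sham. Snap25, a synaptic vesicle fusion protein, had 111.5 and 97.6 CPM at day 21, against 25.1 and 17.7 CPM at day 7 (a log2 fold change of 2.29 ± 0.34, adjusted p = 0.0277), and 1270 CPM on average in sham. Ppp1r1b, known as DARPP-32, had 134.8 and 144.9 CPM at day 21, against 19.2 and 19.2 CPM at day 7 (2.87 ± 0.44), with a sham mean of 316. Pcp4, a calmodulin regulator, had 25.6 and 23.4 CPM at day 21, against 3.02 and 2.27 CPM at day 7 (3.22 ± 0.42), with a sham mean of 251. Pcp4 exons overlap those of Igsf5 on the same strand, so reads may be shared. The groups were separate in all 3 genes, and the sham level lay above both times. Rit2, a neuronal GTPase (2.67 ± 0.46), Lamp5 (2.92 ± 0.50) and Rnf112 (2.94 ± 0.48) showed the same order, as did the clone-named A830018L16Rik and D430041D05Rik, so that 8 of the 38 higher genes were below their sham mean at day 21. Of 18 tested neuron markers, 1 was called higher and 0 lower, all 18 had a positive change and the median was 2.19. With the block 9 of the 18 passed as higher (2.21% of all genes tested did), among them Gad1 and Gad2, the enzymes that make GABA. Gad2 had 7.73 and 7.52 CPM at day 21, against 1.28 and 0.530 CPM at day 7 (adjusted p = 0.0537, or 0.0157 with the block).

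Markers of astrocyte identity had higher values at day 21 in most members, and none passed the test without the replicate block. Of 30 tested, 27 had a positive change, 24 were higher in both day 21 libraries than in both day 7 libraries (25.6% of all genes tested were), and the median was 1.68, but 0 were called. With the block 4 passed as higher (Slc1a3, Fgfr3, Slc7a10 and Acsl6), against 2.21% of all genes tested. Slc1a3, the glutamate transporter GLAST, had 380 and 284.5 CPM at day 21, against 105.1 and 85.4 CPM at day 7 (a log2 fold change of 1.80 ± 0.45, adjusted p = 0.116, or 0.0391 with the block). Fgfr3, a receptor that marks cortical astrocytes, had 41.0 and 54.9 CPM at day 21, against 8.80 and 8.93 CPM at day 7 (2.44 ± 0.52, adjusted p = 0.0753, or 0.0146 with the block). Slc1a2, the transporter GLT-1, had 258 and 146 CPM at day 21, against 72.4 and 29.1 CPM at day 7 (2.0 ± 0.75, adjusted p = 0.272). Aqp4, the water channel of the endfeet (28.5 and 16.9 CPM at day 21, 12.1 and 4.77 CPM at day 7, adjusted p = 0.316), and Aldh1l1, a folate enzyme used as a pan-astrocyte marker (50.1 and 71.1 CPM at day 21, 23.8 and 29.95 CPM at day 7, adjusted p = 0.65), did not pass. The exceptions in direction included Gja1, the gap junction protein connexin 43, at 328 and 152 CPM at day 21 and 702 and 421.5 CPM at day 7 (adjusted p = 0.328). Of the 20 tested genes of glutamate, GABA and ion handling 0 were called, with a median of 1.20, and 5 passed as higher with the block (among them Slc1a3, Slc6a11, Slc38a3 and Kcnk1).

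Several usual measures of reactive astrocytes did not pass the test, although Lcn2 did. Gfap, the intermediate filament protein whose rise defines reactive astrocytes, had 691 and 646 CPM at day 21, against 556 and 359 CPM at day 7 (a log2 fold change of 0.55 ± 0.61, adjusted p = 0.861). Vim (vimentin) had 402 and 459.5 CPM at day 21, against 667 and 706 CPM at day 7 (-0.67 ± 0.31, adjusted p = 0.394). Cd44, the hyaluronan receptor, had 32.9 and 29.3 CPM at day 21, against 74.2 and 62.0 CPM at day 7 (-1.13 ± 0.36, adjusted p = 0.201). Day 21 lay above day 7 in both libraries for Gfap and below in both for Vim and Cd44. Stat3, the transcription factor needed for scar formation, overlapped between times (393 and 531 CPM at day 21, 427 and 634 CPM at day 7, adjusted p = 0.948). Serpina3n, a secreted protease inhibitor, had 14.6 and 18.6 CPM at day 21, against 8.13 and 5.56 CPM at day 7 (adjusted p = 0.471). Of 13 tested genes of the pan-reactive set 1 was called higher (Lcn2) and 0 lower, with a median of 0.87, and the block added Steap4, Cp and Aspg. Of 11 tested A1-associated genes 1 was called (Serping1, median 0.54), and the block added Gbp2 as higher and Fbln5 as lower. Of 12 A2-associated genes 0 were called (median -0.12), and with the block Ptx3 passed as higher and Emp1 as lower. Lcn2 and Serping1 are counted above in other lists too, since the lists share members.

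**Figure D3:**
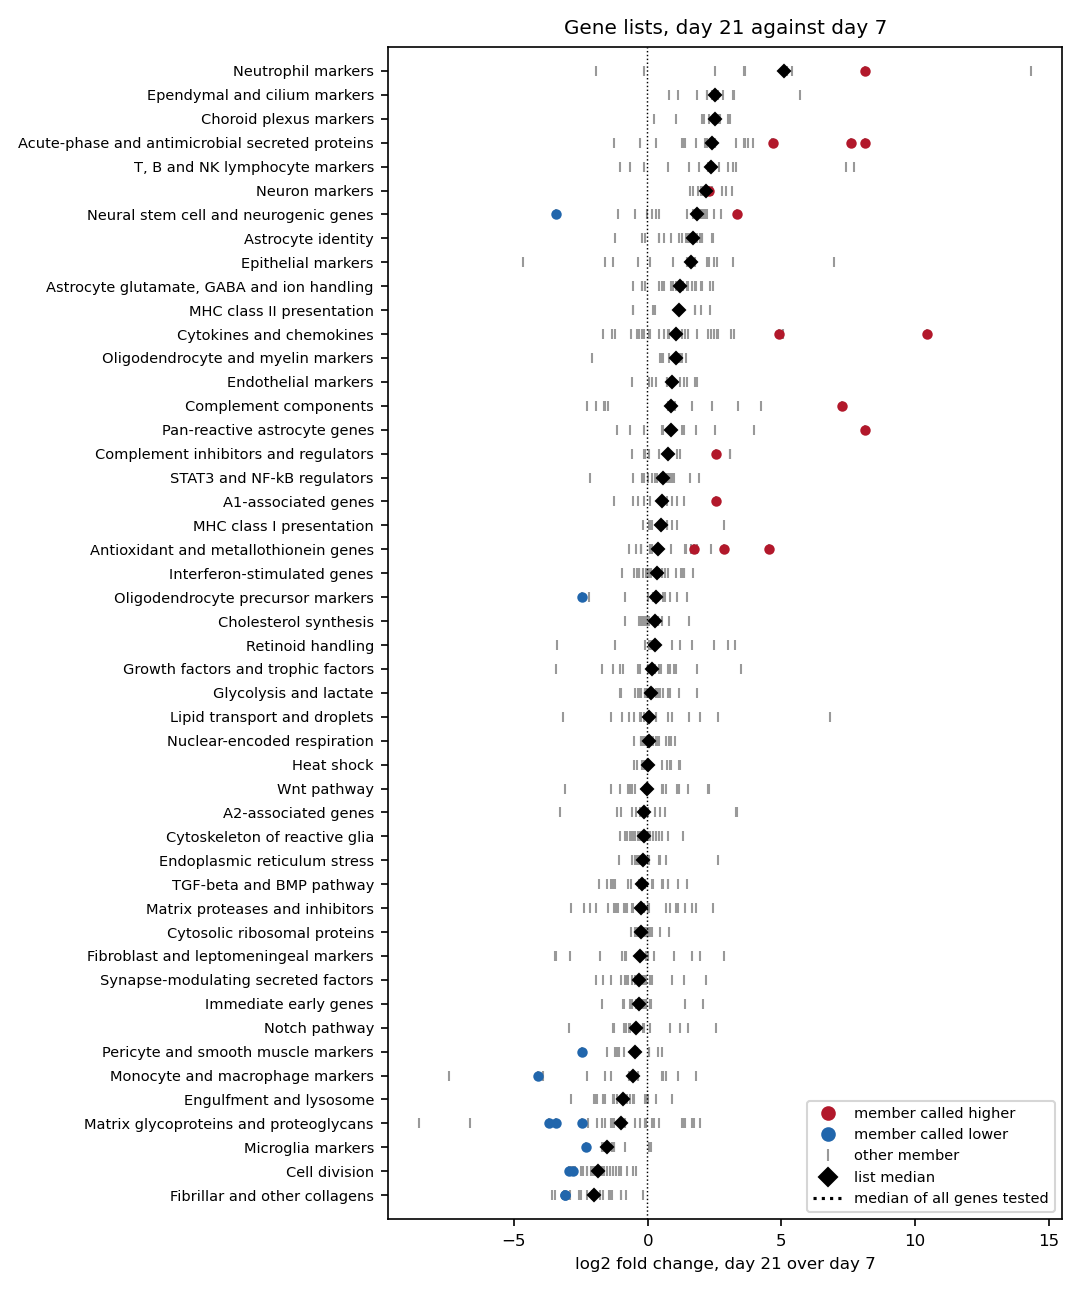
Log2 fold change, day 21 over day 7, of each tested member (tick) of 48 gene lists, with members called higher in red, members called lower in blue and the list median as a black diamond. The lists with the lowest medians are fibrillar and other collagens (-2.01) and cell division (-1.87), and the dotted line marks the median of all genes tested (-0.041).

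Matrix genes were prominent in the lower set. Collagens build the fibrous core of a scar, and all 20 tested had a negative change, with a median of -2.01. In 19 of the 20 both day 21 libraries lay below both day 7 libraries, which held for 23.9% of all genes tested. Col6a3, a chain of the microfibrillar collagen VI, had 75.05 and 93.2 CPM at day 21, against 650 and 770 CPM at day 7 (a log2 fold change of -3.08 ± 0.44, adjusted p = 0.021). Col8a1, a network-forming collagen of vessel walls, had 185 and 137 CPM at day 21, against 1606 and 1168 CPM at day 7 (-3.11 ± 0.43, adjusted p = 0.0197). These were the 2 called members, and 11 passed as lower with the block (1.85% of all genes tested did). Col3a1 and Col1a1, fibrillar collagens of fibroblasts, were more abundant but far more variable. Col3a1 had 4372 and 10460 CPM at day 21, against 35730 and 129500 CPM at day 7 (-3.48 ± 1.09, adjusted p = 0.189, or 0.0157 with the block). Col1a1 had 4114 and 10870 CPM at day 21, against 26350 and 85890 CPM at day 7 (-2.90 ± 1.32, adjusted p = 0.382, or 0.0999 with the block). The collagen list as a whole took 2.50% and 4.56% of the counts at day 21, against 9.59% and 22.4% at day 7. The share of counts of the fibroblast marker list moved alongside, but Col1a1 and Col3a1 are members of both lists. The part of fibroblasts in the fall of the matrix genes was not tested. A fibroblast marker with a change in the other direction was Dcn, decorin, which had 5921 and 8991 CPM at day 21, against 1501 and 2327 CPM at day 7 (1.96 ± 0.49, adjusted p = 0.118, or 0.0221 with the block as higher). Of 16 tested fibroblast markers 0 were called, 6 had a positive and 10 a negative change, and the median was -0.29, while with the block 3 passed as higher (Dcn, Ptgds and Dpep1) and 2 as lower (Col3a1 and Igf2).

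Among the glycoproteins and proteoglycans of the matrix, 3 fell. Aspn (asporin, a leucine-rich proteoglycan that binds collagen) had 4.48 and 4.07 CPM at day 21, against 51.05 and 60.7 CPM at day 7 (a log2 fold change of -3.71 ± 0.37, adjusted p = 0.00383). Tnc (tenascin C, a glycoprotein of injury and development) had 6.95 and 6.24 CPM at day 21, against 61.5 and 78.7 CPM at day 7 (-3.41 ± 0.58, adjusted p = 0.0442). Cspg4, the NG2 proteoglycan of oligodendrocyte precursors and pericytes, had 17.0 and 14.6 CPM at day 21, against 105.5 and 69.4 CPM at day 7 (-2.47 ± 0.40, adjusted p = 0.0363). None of the 3 overlapped between the times. They were the called members of 33 tested, with 0 higher and a median of -1.01. With the block 13 passed as lower and 2 as higher (Dcn and Prelp), against 1.85% and 2.21% of all genes tested. Eln, elastin, had the most negative change of the list without passing: 69.0 and 133.8 CPM at day 21, against 12240 and 63860 CPM at day 7 (-8.55 ± 1.85, adjusted p = 0.0785, or 0.00717 with the block). It took 0.00780% and 0.0122% of the counts at day 21, against 1.11% and 4.40% at day 7. Fn1, fibronectin, had 939 and 1319 CPM at day 21, against 3550 and 4791 CPM at day 7 (-1.89 ± 0.47, adjusted p = 0.115, or 0.0157 with the block). Outside these lists Col26a1 (-3.38 ± 0.52), Crispld2, a secreted protein (-2.59 ± 0.39), Cthrc1, a secreted protein of matrix-forming cells (-2.01 ± 0.35), Tll1, a protease that processes procollagen (-2.01 ± 0.35), and Gpc1, a glypican (-1.78 ± 0.32), were called lower as well.

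Genes of the cell cycle had lower values at day 21 in every member tested, and 2 passed the test. All 34 had a negative change, and the median was -1.87. Both day 21 libraries lay below both day 7 libraries in 34 of 34, which held for 23.9% of all genes tested. Ccnb2, a mitotic cyclin, had 2.07 and 3.03 CPM at day 21, against 17.5 and 22.4 CPM at day 7 (a log2 fold change of -2.96 ± 0.51, adjusted p = 0.0442). Birc5, survivin of the chromosomal passenger complex, had 1.57 and 2.47 CPM at day 21, against 13.2 and 15.5 CPM at day 7 (-2.81 ± 0.49, adjusted p = 0.0442). With the block 14 of the 34 passed as lower, against 1.85% of all genes tested. Among them were Mki67, the antigen of dividing cells (4.43 and 3.41 CPM at day 21, 25.7 and 15.8 CPM at day 7, adjusted p = 0.0987, or 0.0367 with the block), and Top2a, the topoisomerase of replication (8.18 and 10.1 CPM at day 21, 32.6 and 32.3 CPM at day 7, adjusted p = 0.296, or 0.0446 with the block). At day 21 the list took 0.0284% and 0.0279% of the counts, against 0.0716% and 0.0568% at day 7 and a sham mean of 0.0171%. Ccnb2 peaked before day 7, with mean CPM of 1.74 (sham), 0.775 (day 1), 75.0 (day 3), 19.95 (day 7), 2.55 (day 21) and 2.17 (day 60).

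Several genes of phagocytes fell. Spp1 (osteopontin, a secreted phosphoprotein of activated phagocytes and wounds) had 2027 and 1982 CPM at day 21, against 29070 and 28420 CPM at day 7 (a log2 fold change of -3.84 ± 0.51, adjusted p = 0.0169). It lies on chromosome 5 (GRCm38, chr5:104435118-104441050, plus strand, protein coding). Spp1 alone took 0.229% and 0.181% of the counts at day 21, against 2.64% and 1.96% at day 7. Emr1, the macrophage antigen F4/80, had 35.1 and 40.8 CPM at day 21, against 233 and 191 CPM at day 7 (-2.48 ± 0.34, adjusted p = 0.0193). Fcrls, an Fc receptor-like protein of microglia, had 117 and 119 CPM at day 21, against 724 and 439 CPM at day 7 (-2.30 ± 0.38, adjusted p = 0.0411). Pf4, a chemokine of platelets and of macrophages at brain borders, had 0.392 and 0.430 CPM at day 21, against 8.13 and 6.15 CPM at day 7 (-4.09 ± 0.42, adjusted p = 0.00383). Every one of these genes was lower in both day 21 libraries than in both day 7 libraries. Fcer1g, an adaptor of Fc receptors (-1.94 ± 0.35), Csf2ra, the GM-CSF receptor (-1.99 ± 0.35), Alox5ap, needed for leukotriene synthesis (-2.18 ± 0.36), Adcy7, an adenylate cyclase (-2.32 ± 0.37), and Gusb, a lysosomal glucuronidase (-1.89 ± 0.30), were called lower too.

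Of the 14 tested microglia markers 1 was called lower (Fcrls) and 0 higher, with a median of -1.53. With the block 7 passed as lower, against 1.85% of all genes tested. Tmem119, a membrane protein of microglia, had 188 and 103.4 CPM at day 21, against 637 and 310 CPM at day 7 (adjusted p = 0.214, or 0.00583 with the block). Of the 14 monocyte and macrophage markers 1 was called lower (Pf4), with a median of -0.53, and 4 passed as lower with the block (Pf4, Ms4a7, F13a1 and Ms4a6c). In this list 9 members had a negative and 5 a positive change. Both day 21 libraries lay below both day 7 libraries in 8 members and above them in 3. The 21 genes of engulfment and the lysosome held 0 calls and a median of -0.91, and 7 passed as lower with the block. They include Cd68, a lysosomal protein of phagocytes (150 and 219 CPM at day 21, 689.5 and 677.5 CPM at day 7, adjusted p = 0.0651, or 0.0108 with the block), and Trem2, a lipid receptor of microglia (92.4 and 163 CPM at day 21, 403.5 and 405 CPM at day 7, adjusted p = 0.129, or 0.0287 with the block). Astrocytes also engulf debris through Megf10, which had 19.0 and 14.5 CPM at day 21, against 64.4 and 63.0 CPM at day 7 (adjusted p = 0.0895, or 0.0237 with the block). Microglia markers were present in the sorted cells at both times, and their part in the fall of the phagocyte genes was not tested.

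The remaining lower genes held signals and channels. Gal, the neuropeptide galanin, had 0.0560 and 0 CPM at day 21, against 36.3 and 47.2 CPM at day 7, which is 1 count against 5616. The mean CPM at day 7 was 1492 times that at day 21. From the summed counts and library sizes, which weight the deeper replicate more, the ratio of day 7 to day 21 was 5940, with a 95% counting interval of 1070 to 235000. Both values rest on the single count at day 21, and the adjusted p was 0.021. Gal lies on chromosome 19 (GRCm38, chr19:3409915-3414544, minus strand). Penk, the precursor of enkephalins, had 11.5 and 8.89 CPM at day 21, against 56.6 and 59.0 CPM at day 7 (a log2 fold change of -2.50 ± 0.37, adjusted p = 0.0277). Igfbp3, a carrier of insulin-like growth factors, had 11.9 and 8.30 CPM at day 21, against 131 and 93.7 CPM at day 7 (-3.47 ± 0.58, adjusted p = 0.0442). The day 21 libraries were below the day 7 libraries in all 3. Kcnn4, a calcium-activated potassium channel (-3.02 ± 0.49), and Panx1, a channel that releases ATP (-1.84 ± 0.31), also fell. So did Bpgm, which makes 2,3-bisphosphoglycerate (-2.97 ± 0.45), Ank, which exports pyrophosphate and ATP (-2.41 ± 0.38), Rftn1, a lipid raft protein (-2.08 ± 0.36), and Gsto1, a glutathione transferase (-1.64 ± 0.29).

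Many other lists held 0 calls without the replicate block. These were 27 interferon-stimulated genes (median 0.34), 14 genes of MHC class I presentation (0.51), 21 regulators of STAT3 and NF-kB (0.56), 22 TGF-beta and BMP genes (-0.22), 20 Wnt genes (-0.033), 14 Notch genes (-0.42), 21 growth factors (0.15), 21 genes of cholesterol synthesis (0.28), 21 of glycolysis (0.13), 24 of respiration (0.049) and 26 cytosolic ribosomal proteins (-0.26). The same held for 19 genes of lipid transport (median 0.062), 13 of retinoid handling (0.27), 18 of endoplasmic reticulum stress (-0.19), 16 heat shock genes (0.02), 20 immediate early genes (-0.33), 22 cytoskeletal genes of reactive glia (-0.13), 29 matrix proteases and inhibitors (-0.26) and 20 secreted factors that act on synapses (-0.32). With the block some of these lists held members that passed: Gbp2 as higher among interferon-stimulated genes, Lifr and Vcam1 as higher and Socs1 as lower among regulators of STAT3 and NF-kB, Tgfb1 and Tgfb3 as lower in the TGF-beta list, Heyl as lower in the Notch list and Igf2 as lower among growth factors. Likewise Rarres2 and Cyp26b1 passed as higher and Aldh1a3 as lower in retinoid handling, Apod and Scd1 as higher and Cd36 as lower in lipid transport, Arc as higher among immediate early genes, Timp4 as higher and Adam8 and Loxl1 as lower among matrix proteases and inhibitors, and Gpc5 as higher and Sparc, Megf10 and Il33 as lower among factors that act on synapses. Among marker lists, 0 of 14 oligodendrocyte genes (median 1.04) and 0 of 14 epithelial genes (median 1.63, or 1.30 with a member at 0 counts at its bound) were called, and with the block 1 epithelial gene (Krt19) passed as lower. Cspg4 was the 1 called member of both the 12 oligodendrocyte precursor markers (median 0.30) and the 14 pericyte and smooth muscle markers (-0.47), and the 20 genes of neural stem cells (1.86) held 1 higher (Vnn1) and 1 lower (Tnc), or 4 and 2 with the block. B2m, the light chain of MHC class I, had 1374 and 1441 CPM at day 21, against 967 and 743 CPM at day 7 (a log2 fold change of 0.72 ± 0.39, adjusted p = 0.508). H2-K1, a class I heavy chain, had 1136 and 833 CPM at day 21, against 525 and 407 CPM at day 7 (1.08 ± 0.50, adjusted p = 0.385). Both were higher in each day 21 library without passing. MHC class II genes (9 tested, median 1.16) also held 0 calls, with Cd74, the invariant chain, at 584 and 1015 CPM at day 21 and 149 and 171 CPM at day 7 (2.32 ± 0.51, adjusted p = 0.0863, or 0.0246 with the block).

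Set against the other groups, the called genes did not all return towards sham. Of the 38 higher genes, 30 were above their sham mean at day 21, and their highest group mean was that of day 60 in 16 genes, of day 21 in 14 and of sham in 8. All 31 lower genes were above their sham mean at day 7, and at day 21, 21 were still above it and 10 below. Their highest mean was that of day 7 in 21 genes, of day 3 in 7 and of day 1 in 3. By the call itself, no higher gene could be highest at day 7 and no lower gene at day 21. On a log2 scale the group mean of day 60 was nearer to that of day 21 than to that of day 7 in 67 of the 69 genes, and the exceptions were Hdc and Penk. On the linear CPM scale it was nearer to day 21 in 62 genes, with Cxcl5, Pla1a, Prok2, Sod2 and Vnn1 as further exceptions. The 69 genes were chosen on these same day 21 and day 7 values. The matching share over all genes tested is not given here, so these counts are not a trait of the called genes. Lcn2 was high early and late, with mean CPM of 4.91 (sham), 307.5 (day 1), 68.05 (day 3), 6.16 (day 7), 1728 (day 21) and 1426 (day 60). C3 climbed at each step, with mean CPM of 0.50 (sham), 1.41 (day 1), 7.33 (day 3), 32.2 (day 7), 4945 (day 21) and 5135 (day 60). Only the pair of day 21 and day 7 was tested here.

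**Figure D4:**
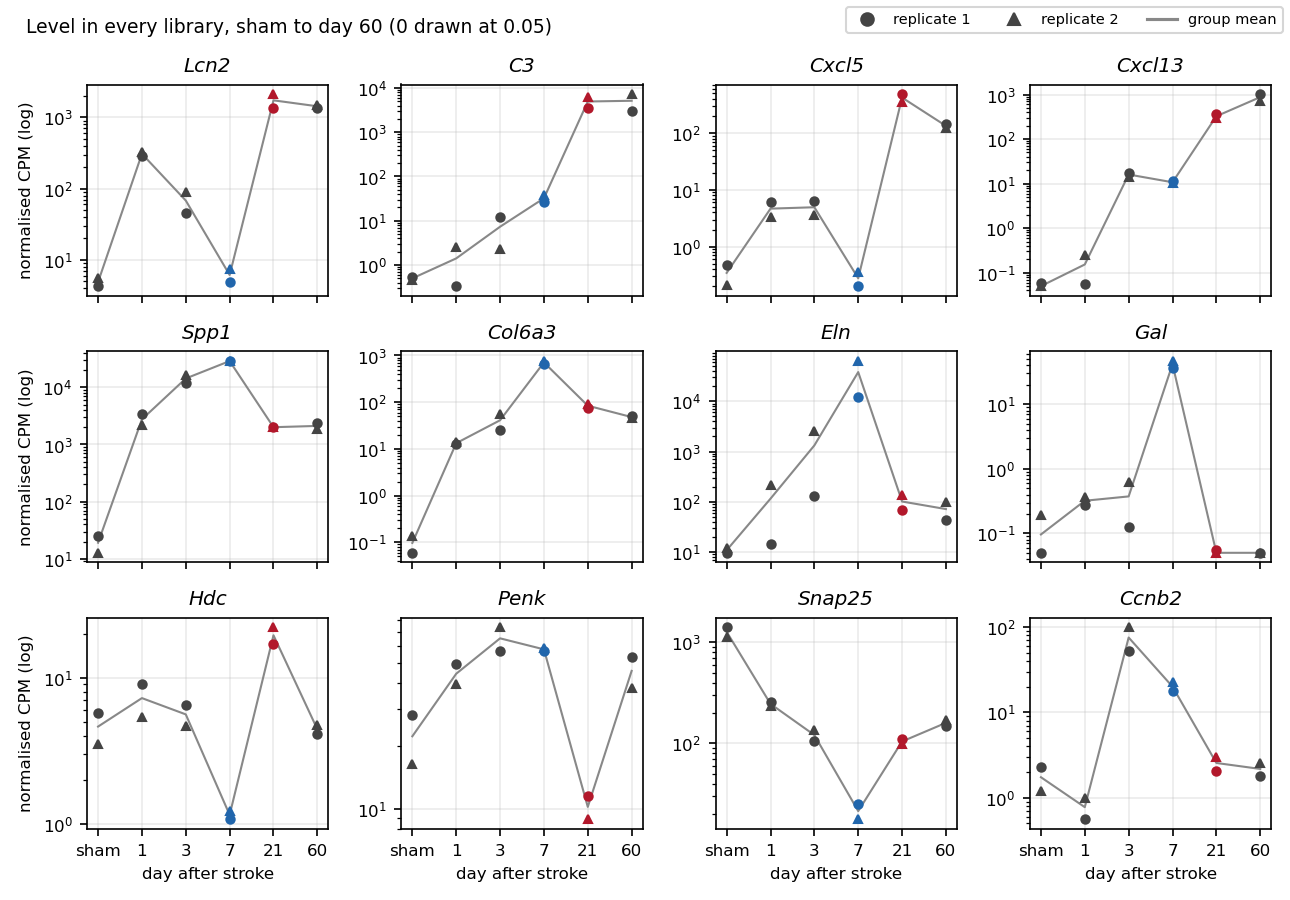
Normalised CPM (y axis, log scale) of 12 genes in each library of sham and days 1, 3, 7, 21 and 60 after stroke (x axis), with circles for replicate 1, triangles for replicate 2, a line through the group means, day 21 in red and day 7 in blue. Lcn2 and Cxcl5 are low at day 7 between higher levels before and after, Gal is under 1 CPM outside day 7, and Eln differs most between its replicates at day 3.

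The direction of change was compared between the replicate numbers, since each number occurs at both times. The log2 difference of day 21 minus day 7 within replicate 2 correlated with that within replicate 1 at r = 0.731 across 15635 genes, which are not independent replicates. The sign was the same in 12540 genes (80.2%). Both differences exceeded 1 in 2065 genes and were under -1 in 913, and 153 genes passed 1 in opposite directions. Library levels correlated as closely between the times within a number (r = 0.938 for replicate 1 and 0.935 for replicate 2) as between the replicates of a time (0.933 at day 21 and 0.939 at day 7).

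**Figure D5:**
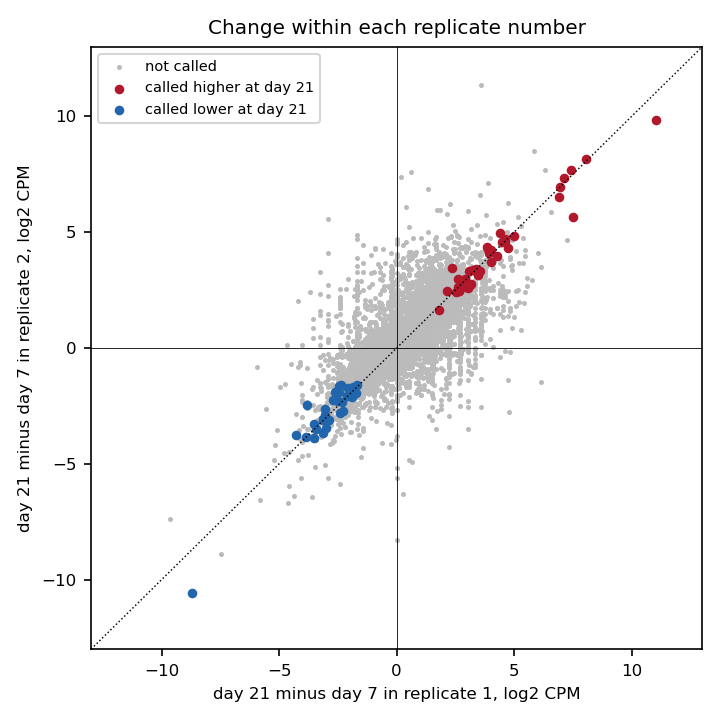
Log2 difference of day 21 minus day 7 within replicate 2 (y axis) against that within replicate 1 (x axis), 1 point per gene tested, genes called higher in red and lower in blue, with a dotted line where both are equal. The called genes lie in the quadrants where both replicates moved the same way, which the call itself nearly requires with so few libraries. The r over all 15635 genes is 0.731.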

How the data were processed

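RNA sequencing of FACS-sorted cortical astrocytes gave 12 libraries in 6 groups of 2, grouped by their labels. The deposited values are raw counts per gene symbol, made with Bowtie2 2.3.4.2 and HTSeq 0.6.1 on mm10, per the submitters' processing notes. The gene annotation, the strand setting and the treatment of reads with several matches are not given in the sources used here. The table of the whole series was identical to the sample files in 189288 of 189288 values.

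The counts were fitted with edgeR 4.0.16 in R 4.3.3 (TMM scaling, filterByExpr with a minimum count of 10). All 12 libraries entered 1 quasi-likelihood fit (6 residual degrees of freedom, median biological coefficient of variation 0.408), with day 21 minus day 7 as the contrast and Benjamini-Hochberg adjustment over 15635 genes. Every adjusted p is from this test unless another tool is named. Standard errors (SE) are of the log2 fold change. The script was tested on simulated data.

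For each gene, replicate 2 minus replicate 1 was taken within every group, and over the 15 pairs of groups these differences had correlations of 0.319 to 0.713, all above the threshold of 0.1. By this check the numbers pair the libraries, although no label says what they mark. The main test, from which the calls are taken, leaves this pairing out. A second fit that blocks on the number (the replicate block, 5 residual degrees of freedom) is given beside counts and named genes whose calls it changes. DESeq2 1.42.0, limma 3.58.1, other filters and scaling, thinned counts and leaving out each library were the alternatives.

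The 48 gene lists and the comparison were chosen with earlier results of these data known, and lists are described by counts and medians alone. Genes described singly with each library's value were the 15 largest called changes in each direction with at least 10 CPM in the higher group, separate libraries and no clone-type symbol, then up to 4 members of each list and fixed landmark genes. For the largest changes, the lack of overlap between the times was thus fixed by the choice and is no separate result. Others may be named if called, and Eln, C4a, C1rb and Elane were chosen after their values were seen. Some members that the rule takes are not reported here. Of 136 named genes 136 are in the GENCODE annotation of GRCm38 (mm10) and 135 are protein coding. Another coding gene shares exonic bases with 4 of them on the same strand and with 9 on the opposite one.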

Additional observations from a re-analysis of the deposited data

How the results depend on the processing

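The counts of called genes (69 in all, 38 higher and 31 lower) stayed within 1.5 times under DESeq2 size factors, no filter on low counts and a minimum count of 50. The DESeq2 Wald test called 1047 genes (684 higher and 363 lower), limma-voom 287 (126 and 161), a fit of only the 4 libraries of day 21 and day 7 350 (215 and 135), and the fit with the replicate block 635 (345 and 290). Counts thinned to the shallowest library gave 51, of which 20 were lower. The higher share was 65.3% under the DESeq2 Wald test and 43.9% under limma-voom, against 55.1%. Leaving out each library in turn gave 2 to 228 genes (2 to 154 higher and 0 to 74 lower), and a lone library was then assumed to vary like the other groups. With 0 lower genes called by edgeR, without day 7 replicate 1 and without either day 21 replicate, 1447, 1194 and 1302 genes in either direction had an unadjusted p under 0.05. The largest counts came without a day 1 library (223 and 228), and without a sham library 42 and 43 passed; the cause was not tested.

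Of the 66 called genes examined singly, 0 reversed under these settings. Uncalled genes that did, when a library was left out, were Stat3 (-0.46 to 0.12, positive without day 7 replicate 2), H2-D1 (-1.43 to 2.95), C4b (-0.22 to 6.14), C4a (-14.93 to 17.41) and C1rb (-7.73 to 13.1), each lowest without day 21 replicate 2 except Stat3. H2-D1 was also negative without day 7 replicate 1 (-0.11), and C4a under limma-voom (-0.03). Scaling with DESeq2 size factors shifted the median of all genes by 0.02 log2 units. When other settings were tried, 12 of the 48 list medians changed sign under at least 1, among them that of the A1-associated genes (-0.14 to 0.66), and the others that did so had medians of -0.26 to 0.30.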

Other observations

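Elane, neutrophil elastase, had 0.336 and 80.0 CPM at day 21, and 0 CPM in both day 7 libraries, so its fitted value rested on day 21 replicate 2 (adjusted p = 0.233). H2-D1, a class I gene with similar relatives, had 458 and 3636 CPM at day 21, against 264.5 and 2207 CPM at day 7.

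Markers of epithelia of the ventricle had higher values at day 21 without passing. All 12 tested choroid plexus markers had a positive change (median 2.50), 0 were called, and 2 passed with the block. Folr1, a folate receptor, had 32.9 and 37.0 CPM at day 21, against 5.51 and 6.37 CPM at day 7 (adjusted p = 0.0915, or 0.0199 with the block). Ttr, transthyretin, had 1055 and 1454 CPM at day 21, against 104.6 and 205 CPM at day 7, and its group mean at day 60 was 23.8 CPM. All 12 tested ependymal and cilium markers had a positive change as well (median 2.50), and 0 were called. Endothelial markers held 0.199% and 0.327% of counts at day 21, against 0.0786% and 0.106% at day 7, with 0 of 15 called (median 0.90).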
